A study of Mus musculus with 4 samples.

Results

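The genes described are Hoxb1 to Hoxb9, the run of homeobox genes that holds the reporter gene Hoxb6 on mouse chromosome 11. They were taken from the array by accession: every probe that is not a control and whose transcript accession belongs to one of these symbols was used. All 9 genes had a probe, 10 probes in all, out of 55681 probes on the array and 20658 genes that could be named. Hoxb3 had 2 probes and each other gene 1, and the Hoxb1 probe was printed as 10 spots.

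Gene expression was measured in EB5 mouse embryonic stem (ES) cells that carry a Venus fluorescent reporter of Hoxb6 and had been differentiated for 6 days on OP9 stromal feeder cells. Both groups were Flk-1+, meaning that the cells were stained for the VEGF receptor encoded by Kdr, and they differed in the reporter: 2 arrays held RNA of Venus-positive cells and 2 held RNA of Venus-negative cells. How the reporter was built into the cells, and whether the line is a single clone, is not given in the sources used here. Whether replicates came from separate cultures is not given either, so the p-values rest on a spread that may be technical. Feeder cells were not stated to have been removed other than by the sort. In sorted cells, fewer cells expressing a gene and less of its RNA per cell cannot be told apart.

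Hox genes encode transcription factors that give cells their position along the head-to-tail axis. Within a cluster they are switched on in the order in which they lie on the chromosome, the genes at the Hoxb1 end earlier and further towards the head than those at the Hoxb9 end. In the mouse embryo Hoxb1 marks the primitive streak, early mesoderm and a segment of the hindbrain, whereas Hoxb5 to Hoxb9 are active in the mesoderm and neural tube of the trunk. Hoxb6 is known from the lateral plate mesoderm and Hoxb4 from blood progenitors. The comparison asks how expression of the genes around Hoxb6 compares in Flk-1+ cells that do and do not show the reporter.

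The promoter sequences below belong to genes from different stretches of the cluster whose signals went different ways: Hoxb8 and Hoxb4 had higher and Hoxb1 had lower signals in the Venus-positive cells. Each line gives the 250 bases before the transcription start, 5′ to 3′ on the plus strand, from RefSeq on GRCm38.p6. The RefSeq table used here matched 3 of the 9 genes. Capitals mark motif matches, read on both strands. The motif TATAAA has the letters of the TATA box. The motif TTTATG and the longer motif TTTATTG resemble sites of caudal-type (Cdx) proteins. The motif TGATNNAT resembles a joint site of Hox and Pbx proteins, and the motif CCAAT is the CCAAT box. No 2 marked matches overlap.
Hoxb8, chr11:96281655-96281904: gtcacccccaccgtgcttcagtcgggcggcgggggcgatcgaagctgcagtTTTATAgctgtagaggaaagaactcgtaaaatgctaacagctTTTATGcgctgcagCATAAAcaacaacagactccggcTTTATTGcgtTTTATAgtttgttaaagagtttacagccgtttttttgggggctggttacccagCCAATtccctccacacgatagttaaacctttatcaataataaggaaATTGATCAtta
Hoxb4, chr11:96318017-96318266: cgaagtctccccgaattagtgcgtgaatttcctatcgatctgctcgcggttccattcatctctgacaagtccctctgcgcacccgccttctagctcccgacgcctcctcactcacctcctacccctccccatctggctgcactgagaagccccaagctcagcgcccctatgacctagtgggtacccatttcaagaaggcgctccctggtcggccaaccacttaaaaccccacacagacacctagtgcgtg
Hoxb1, chr11:96365508-96365757: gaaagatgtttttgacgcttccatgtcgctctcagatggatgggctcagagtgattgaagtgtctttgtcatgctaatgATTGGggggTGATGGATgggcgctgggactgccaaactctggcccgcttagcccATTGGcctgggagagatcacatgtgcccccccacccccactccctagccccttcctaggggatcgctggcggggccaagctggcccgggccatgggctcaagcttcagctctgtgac

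The Hoxb8 window held 2 matches to TTTATG and 1 to TTTATTG, motifs found in 10.8% and 4.2% of the 32851 promoter windows of the same length. It also held 2 matches to TATAAA, found in 12.4% of windows, both on the minus strand (positions -199 to -194 and -110 to -105 from the start). The same window held 1 match to CCAAT, found in 33.8%, and 1 to TGATNNAT, found in 7.68%. The Hoxb1 window held 1 match to TGATNNAT, spelled TGATGGAT and lying at positions -162 to -155 from the start, and 2 to CCAAT. The Hoxb4 window held none of these motifs. The E-box CACGTG, found in 6.02% of windows, and an exact spaced direct repeat of AGGTCA as in a retinoic acid response element, found in 0.00913%, matched in none of the 3. A match describes the letters only.

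Kdr, the gene behind the Flk-1+ label, was bright in both fractions. Its brighter probe had processed signals of 20835 and 16277 in the Venus-negative and 28610 and 27040 in the Venus-positive cells (log2 difference 0.44 ± 0.11 SE, adjusted p = 0.136 in limma). A second Kdr probe had 4049 and 3443 against 5013 and 4869 (0.25 ± 0.10 SE, adjusted p = 0.243). With no array of Flk-1-negative cells, these values do not test the label. On the 4 arrays, 50.7% to 53.0% of the spots that are not controls were well above background, the scanner software's call that a spot is clearly brighter than its surroundings. All 10 Hoxb probes were well above background on all 4 arrays, so none of them entered the test through 1 fraction alone, and 0 spots were saturated. All arrays lay on 1 slide with 1 scan. Both Venus-negative arrays lay in slide column 2 and both Venus-positive arrays in slide column 3, so the column and the fraction cannot be told apart.

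Signals of the middle of the Hoxb cluster, from Hoxb4 to Hoxb8, were 1.90-fold to 3.42-fold higher in the Venus-positive cells, while that of Hoxb1 at the end of the cluster was 2.95-fold lower, and none of these differences passed the threshold. Hoxb2 and one Hoxb3 probe had overlapping signals in the fractions. Of the 10 probes, 7 had both Venus-positive arrays above both Venus-negative arrays, 1 had them below and 2 overlapped. Over all 27897 probes tested, 28.8% lay apart as higher and 28.8% as lower. None of the 10 passed a Benjamini-Hochberg adjusted p of 0.05 in limma, against 2.44% of all probes tested (0.943% higher and 1.5% lower). At unadjusted p below 0.05 there were 6 Hoxb probes with higher and 1 with lower signal, and the same held for 12.3% and 11.7% of all probes. No call given here was kept with any 1 of the 4 arrays left out. In such a run 1 fraction has a single array, so it cannot tell a call that hangs on the missing array from a loss of precision. Taking each gene by its brightest probe, the median log2 difference over the 9 genes was 0.92. Over all named genes with a probe it was -0.08, and the range from the 10th to the 90th percentile of those genes ran from -0.71 to 0.59.

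**Figure D1:**
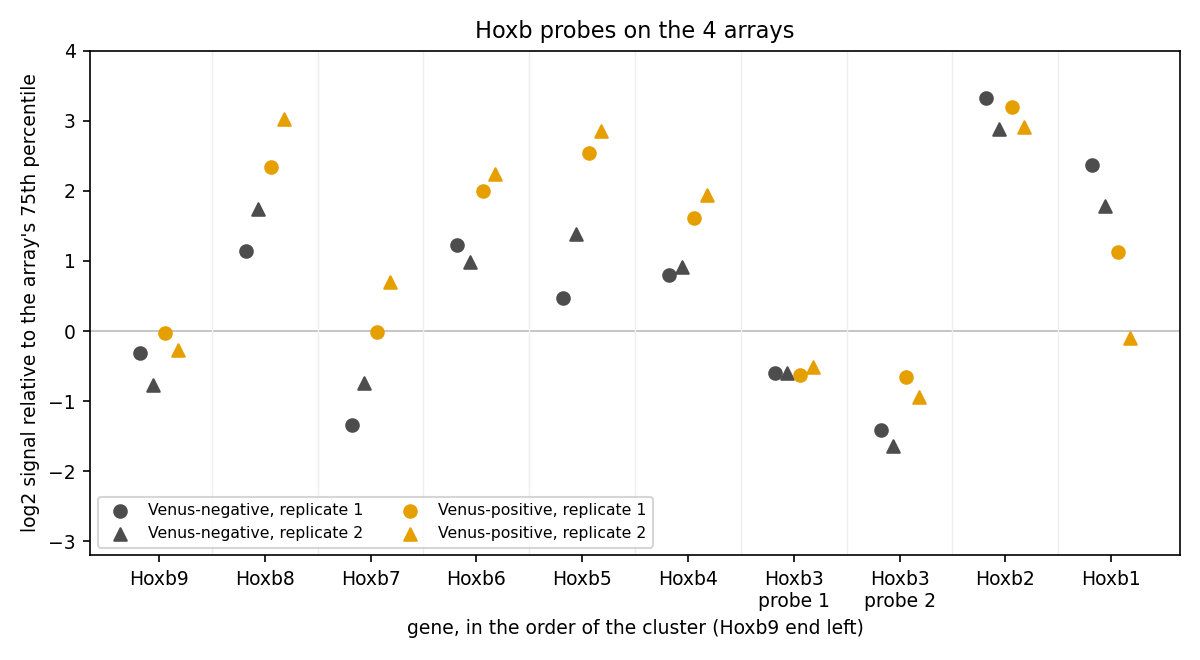
Log2 processed signal of each Hoxb probe relative to the array's 75th percentile, on each of the 4 arrays (points; circles replicate 1, triangles replicate 2; grey Venus-negative, orange Venus-positive), with genes in cluster order. The orange points lie above the grey ones from Hoxb9 to Hoxb4 and below them for Hoxb1; heights of different probes are not comparable.

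Hoxb6, the gene on which the sort was made, had processed signals of 925 and 685 in the Venus-negative and of 1712 and 1875 in the Venus-positive cells. Both Venus-positive arrays were brighter than both Venus-negative arrays. After scaling of each array to its 75th percentile, the log2 signal was 1.1 ± 0.17 (SD, n = 2) and 2.12 ± 0.17 (SD, n = 2). The log2 difference of 1.01 ± 0.16 (SE) had a 95% interval of 0.57 to 1.45 and an adjusted p of 0.0677 in limma. Because the cells were separated on a reporter of this gene, its difference is not independent of the sort. The Venus-negative fraction was not devoid of Hoxb6 signal, since the probe was well above background on both of its arrays. Which cells in that fraction gave the signal was not tested.

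Hoxb5, which lies beside Hoxb6 and takes part in patterning the trunk and its organs, had the largest difference of the 9 genes. Its processed signals were 548 and 905 in the Venus-negative and 2506 and 2876 in the Venus-positive cells. Every Venus-positive value was more than 2-fold above both others. The log2 difference was 1.77 ± 0.36 (SE), 3.42-fold, with a 95% interval of 0.76 to 2.79 and an adjusted p of 0.100 in limma. Only 0.523% of tested probes were higher by more, and of the 147 probes that were higher by at least as much, itself included, 53 were called (36.1%). The spread between the 2 Venus-negative arrays, 0.91 on the log2 scale, was exceeded by 4.97% of tested probes.

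Hoxb7 and Hoxb8 lie on the other side of Hoxb6 and specify thoracic levels of the axis. Hoxb7 had signals of 156 and 207 in the Venus-negative and of 426 and 647 in the Venus-positive cells, a log2 difference of 1.39 ± 0.35 (SE; adjusted p = 0.132 in limma). Hoxb8 had 871 and 1166 in the Venus-negative and 2174 and 3256 in the Venus-positive cells, a log2 difference of 1.24 ± 0.35 (SE; adjusted p = 0.150). Neither gene's fractions overlapped, and in both genes the replicate 2 array was the brighter one in each fraction. Their standard errors were larger than those of 90.4% and 90.3% of tested probes. Between arrays of the same replicate number, which the labels do not pair, the differences were alike: 1.33 and 1.45 for Hoxb7, and 1.20 and 1.28 for Hoxb8.

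Hoxb4, known for expanding blood progenitors when supplied to ES cells, had signals of 686 and 657 in the Venus-negative and of 1319 and 1528 in the Venus-positive cells. These values were the tightest of the higher genes within the Venus-negative fraction, and the fractions lay clearly apart. The log2 difference was 0.92 ± 0.16 (SE), 1.90-fold, with a 95% interval of 0.48 to 1.36 and an adjusted p of 0.0774 in limma. Hoxb4, Hoxb5 and Hoxb6 passed the threshold with normexp background correction (adjusted p = 0.0235, 0.0440 and 0.0316 in limma). They also passed with a variance prior that depends on the signal (0.0328, 0.0441 and 0.0263). Those runs called 1569 and 2020 of the 27897 probes tested, against 681 in the reported fit. With dim probes kept in the test, 0 probes were called on the array. Hoxb4, Hoxb5 and Hoxb6 were then at an adjusted p of 0.205, 0.245 and 0.187 in limma.

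Hoxb9, at the trunk end of the group, had the smallest difference among the genes from Hoxb4 to Hoxb9. Its signals were 320 and 205 in the Venus-negative and 419 and 330 in the Venus-positive cells. On the scaled log2 values the nearest arrays of the fractions were only 0.04 apart, although they did not overlap. The log2 difference of 0.38 ± 0.21 (SE) had a 95% interval of -0.20 to 0.97 and an adjusted p of 0.346 in limma. Leaving out the dimmer Venus-negative array (replicate 2) brought it to 0.16, and leaving out the brighter one (replicate 1) to 0.61.

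**Figure D2:**
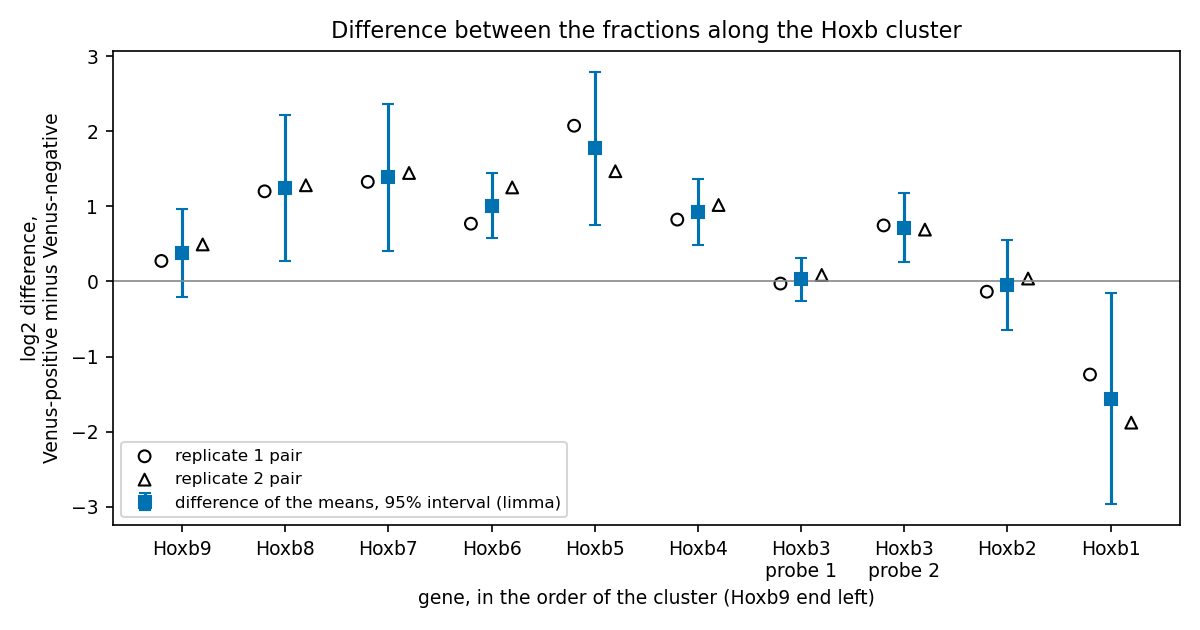
Log2 difference (Venus-positive minus Venus-negative) of each Hoxb probe in cluster order; squares with bars are the difference of the means with its 95% interval from limma, open circles and triangles the differences within replicates 1 and 2. Values rise to 1.77 at Hoxb5, lie near 0 at Hoxb2 and reach -1.56 at Hoxb1.

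The 2 probes of Hoxb3, a gene of the hindbrain and neck region, gave different answers. The first (A_51_P460643) had signals of 261 and 229 in the Venus-negative and of 278 and 279 in the Venus-positive cells, with overlapping scaled values and a log2 difference of 0.03 ± 0.10 (SE; 95% interval -0.26 to 0.32). The second (A_52_P312467) had 149 and 112 in the Venus-negative and 272 and 207 in the Venus-positive cells. Its fractions lay apart, with a log2 difference of 0.72 ± 0.16 (SE; 95% interval 0.26 to 1.18, adjusted p = 0.114 in limma). The log2 ratio of the second to the first probe within each array was -0.81 and -1.04 in the Venus-negative and -0.03 and -0.43 in the Venus-positive cells. The ratio differed by 0.69 between the fractions, without overlap, and the exact two-sided permutation p of 0.333 is the smallest that 2 against 2 arrays allow. Both probes carry the same transcript accession. The position of each probe within the gene is not given in the files.

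Hoxb2, which acts in hindbrain segments, was bright in both fractions. Its signals were 3971 and 2555 in the Venus-negative and 3921 and 3012 in the Venus-positive cells, and the fractions overlapped. The log2 difference was -0.05 ± 0.21 (SE), with a 95% interval of -0.64 to 0.55. The interval leaves room for a difference in either direction, and with median centring of the arrays the value turned to 0.021.

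Hoxb1 was the one gene from Hoxb1 to Hoxb9 whose Venus-positive arrays both lay below the Venus-negative arrays. Its mean signals over spots were 2046 and 1201 in the Venus-negative and 940 and 374 in the Venus-positive cells. The log2 difference was -1.56 ± 0.50 (SE), a 2.95-fold lower signal, with a 95% interval of -2.96 to -0.16 and an adjusted p of 0.181 in limma. Of the 577 tested probes that were lower by at least as much, itself included, 280 were called (48.5%). The standard error of Hoxb1 was larger than that of 96.2% of tested probes, and the gap of 1.22 between its 2 Venus-positive arrays was exceeded by 1.81% of them.

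The 10 spots of the Hoxb1 probe give the error within an array. On the Venus-negative arrays the spots ranged from 1924 to 2148 and from 1134 to 1287. On the Venus-positive arrays they ranged from 844 to 1003 and, with 1 outlier spot left out, from 351 to 408. The coefficient of variation between spots was 3.98% to 5.40%, near the median of 4.98% over the 281 tested probes with 10 spots. With the outlier left out, the spot ranges of the 4 arrays did not overlap. Among those 281 probes, 6 differed more between the Venus-positive arrays than Hoxb1 did (2.14%).

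**Figure D3:**
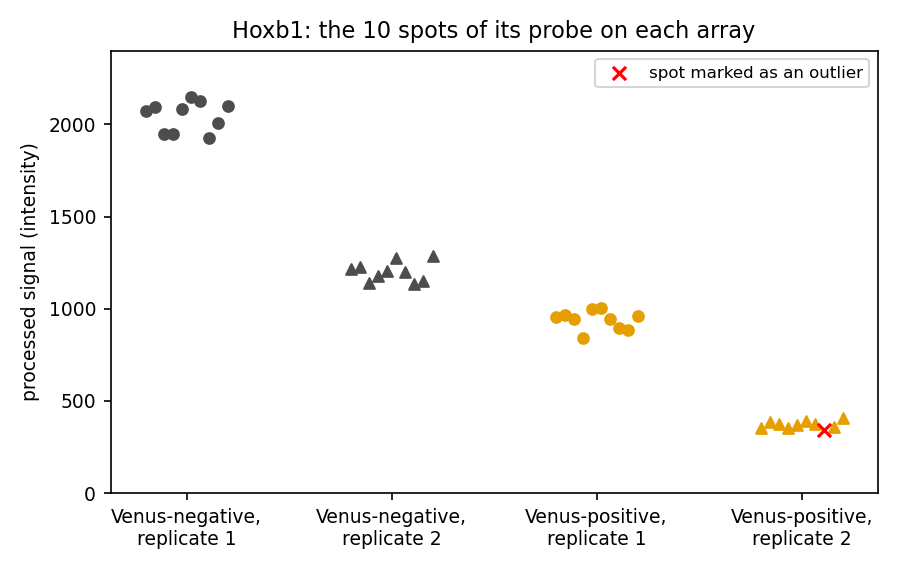
Processed signal (linear intensity) of each of the 10 spots of the Hoxb1 probe on the 4 arrays; circles replicate 1, triangles replicate 2, grey Venus-negative, orange Venus-positive, and the cross is a spot marked as an outlier. The 4 arrays form separate bands, from 1924 to 2148 down to 351 to 408.

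Ratios of genes within an array do not depend on how the arrays are scaled. The log2 ratio of Hoxb5 to Hoxb1 was -1.90 and -0.41 in the Venus-negative and 1.42 and 2.94 in the Venus-positive cells, a difference of 3.33. That of Hoxb6 to Hoxb1 was -1.14 and -0.81 in the Venus-negative and 0.87 and 2.33 in the Venus-positive cells, a difference of 2.57. Hoxb2 and Hoxb1, which are neighbours, also differed unequally: their log2 ratio was 0.96 and 1.09 in the Venus-negative and 2.06 and 3.01 in the Venus-positive cells. For Hoxb4 and the first Hoxb3 probe it was 1.39 and 1.52 against 2.25 and 2.45, a difference of 0.89. With the second Hoxb3 probe it was 2.20 and 2.56 against 2.28 and 2.88, which overlapped and differed by 0.20. The ratios to Hoxb1 did not overlap between the fractions, and each has an exact two-sided permutation p of 0.333, the smallest possible here. Of 10 ratios computed on the brightest probes, 8 of them between neighbours, 3 overlapped. The share over all gene pairs was not computed, and of single probes tested 57.6% lay apart in either direction. Hoxb5 and Hoxb6 lay apart as higher and Hoxb1 as lower, so the separation of their ratios follows from the values of each gene.

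Genes on either side of the cluster were taken from the order of the RefSeq gene table. Beyond Hoxb9, the 5 nearest genes with a probe were Gm53, Hoxb13, Ttll6, Atp5g1 and Ube2z, and beyond Hoxb1 they were Gm11529, Skap1, Snx11, Cbx1 and Gm11517. Hoxb13, the most distant gene of the Hoxb cluster, was not well above background on any of the 4 arrays. Atp5g1, a subunit of mitochondrial ATP synthase, and Ube2z, a ubiquitin-conjugating enzyme, had log2 differences of -0.05 ± 0.09 (SE) and -0.10 ± 0.11 (SE). Beyond Hoxb1, Skap1, a signalling adaptor, had 0.48 ± 0.21 (SE), Snx11, a sorting nexin, 0.17 ± 0.11 (SE) and Cbx1, a heterochromatin protein, 0.14 ± 0.29 (SE). None of these 5 passed in limma (adjusted p from 0.273 to 0.804), and the remaining 5 of the 10 neighbours failed the filter on dim probes. Inside the cluster, Hoxb5os, Mir10a and Hoxb3os had no probe matched by accession.

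The paralogs of these genes in the other clusters arose by duplication and share much of their protein sequence. Of 18 Hoxa, Hoxc and Hoxd genes of paralog groups 1 to 9, 17 were tested, 10 with a positive and 7 with a negative log2 difference. At an adjusted p under 0.05 in limma, 1 was called higher and 0 lower. Unadjusted p lay below 0.05 for 2 with higher and 1 with lower signal, and the median log2 difference of those tested was 0.16. Over all probes tested, 0.943% were called higher and 1.5% lower. At unadjusted p below 0.05 these shares were 12.3% and 11.7%. The called gene was Hoxd8, with signals of 316 and 251 in the Venus-negative and of 679 and 686 in the Venus-positive cells (log2 difference 1.12 ± 0.12 SE, adjusted p = 0.0435). Its log2 difference was close in size to the 1.24 of Hoxb8, which did not pass, and its standard error was 0.12 against 0.35. Hoxd4 and Hoxc4, paralogs of Hoxb4, were at 0.88 ± 0.45 (SE; adjusted p = 0.322) and 0.49 ± 0.13 (SE; adjusted p = 0.134).

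The paralogs of Hoxb5, Hoxb6 and Hoxb7 showed smaller values. Hoxa5 and Hoxc5 had log2 differences of -0.28 ± 0.15 (SE) and 0.32 ± 0.21 (SE), Hoxc6 had 0.25 ± 0.23 (SE) and Hoxa7 0.22 ± 0.30 (SE). Signals of Hoxa5 (18.9 to 25.7) and Hoxc5 (26.6 to 42.6) were low, which limits their comparison with Hoxb5. Hoxa6 failed the filter. Of the 12 genes of groups 10 to 13, 5 were tested. Hoxa10 and Hoxc10 entered the test only through the Venus-positive arrays, so their p-values rest on that filter. Their signals on those arrays were low as well, at 30.3 and 23.6 for Hoxa10 and 39.6 and 37.5 for Hoxc10. Hoxa10 failed the background call on both Venus-negative arrays and was at least 1.81-fold higher in Venus-positive cells (adjusted p = 0.0315). Hoxc10 failed it there too, with a fold of at least 2.43 (adjusted p = 0.0637), and Hoxd10 was at 0.85 ± 0.11 (SE; adjusted p = 0.0538). These bounds take, on a dim array, the lowest signal that passed the background call, or the probe's own where that was brighter.

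**Figure D4:**
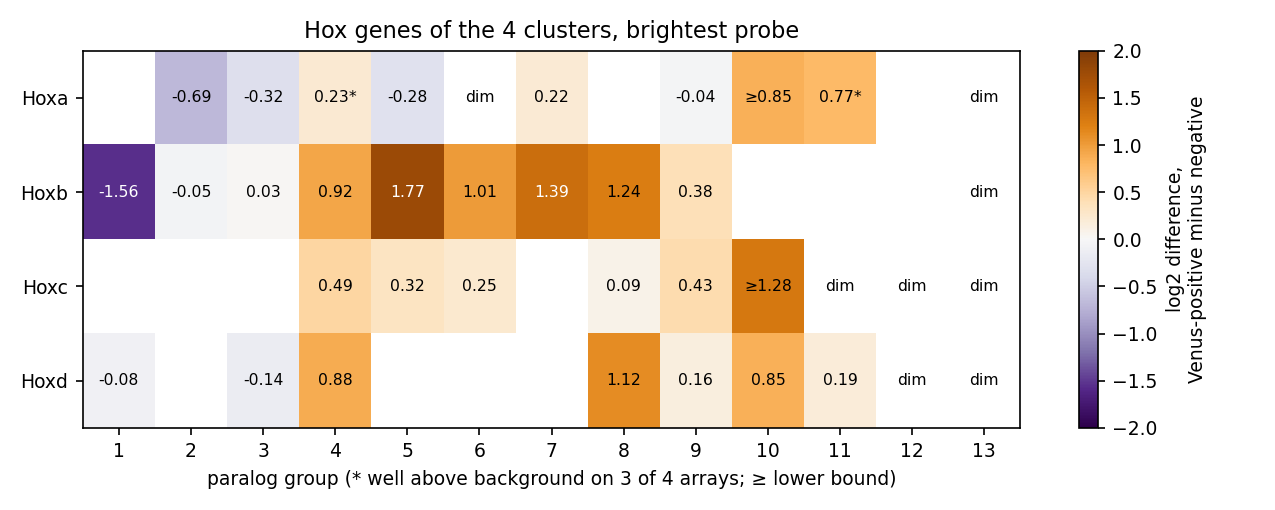
Log2 difference (Venus-positive minus Venus-negative; colour and number) of each Hox gene by cluster (rows) and paralog group (columns), by its brightest probe. Blank cells hold no gene or 1 not shown here, "dim" marks genes that failed the filter, ≥ a lower bound and * a gene well above background on 3 of 4 arrays; the Hoxb row runs from -1.56 in group 1 to 1.77 in group 5.

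Hox proteins bind DNA together with cofactors of the TALE homeobox class. Of 9 such genes tested, 3 had a positive and 6 a negative log2 difference, with a median of -0.07. Unadjusted p was below 0.05 for 1 of the former and 3 of the latter, where 12.3% and 11.7% of all probes were. At an adjusted p under 0.05 in limma 0 were called higher and 1 lower, where 0.943% and 1.5% of all probes were. The called gene was Pknox2, with signals of 467 and 327 in the Venus-negative and 142 and 109 in the Venus-positive cells (-1.81 ± 0.18 SE, adjusted p = 0.0409). Meis2 had signals of 1547 and 1021 against 738 and 451 (-1.28 ± 0.28 SE, adjusted p = 0.110) and Meis3 was at -0.81 ± 0.17 (SE; adjusted p = 0.108). Pbx2 and Pbx3 were bright in both fractions, with log2 differences of 0.13 and 0.01.

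Transcription of the Hoxb genes is known to respond to retinoic acid, to caudal proteins and to Wnt and FGF signals. Of 17 such regulators, 14 were tested, 6 with a positive and 8 with a negative log2 difference and a median of -0.56. Unadjusted p was below 0.05 for 1 of the former and 6 of the latter, where 12.3% and 11.7% of all probes were. At an adjusted p under 0.05 in limma, 0 were called higher and 1 lower, where 0.943% and 1.5% of all probes were. Aldh1a2, the enzyme that makes retinoic acid in early mesoderm, had signals of 1822 and 1402 in the Venus-negative and 220 and 157 in the Venus-positive cells (-3.26 ± 0.18 SE, adjusted p = 0.0304). Cyp26a1, which degrades retinoic acid, had 15229 and 7540 against 1695 and 477. Its log2 difference of -3.73 ± 0.70 (SE) did not pass (adjusted p = 0.0896). Fgf8, a growth factor of the streak, was at -3.03 ± 0.40 (SE; adjusted p = 0.0572). The caudal genes Cdx1, Cdx2 and Cdx4 had log2 differences of -0.54, -0.71 and 0.19, and the retinoic acid receptor Rarb had 0.61 ± 0.42 (SE), none of which passed.

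Markers of cell populations differed between the fractions alongside the Hoxb genes. Over all probes tested, 0.943% were called higher and 1.5% lower. Signal was summed over the 10 endothelial markers in multiples of the array's 75th percentile. It was 101 to 120 in the Venus-negative and 234 to 273 in the Venus-positive cells. All 10 had a positive log2 difference, and 4 were called at an adjusted p under 0.05 in limma. This list includes Kdr, which encodes the receptor that both groups were stained for. Much of the sum was Kdr (20835 and 16277 against 28610 and 27040) and Cldn5 (8151 and 12395 against 37970 and 43729). Over the 7 primitive streak markers the summed signal was 41.9 to 50.7 and 10.8 to 15.0, all 7 log2 differences were negative, and 5 were called. Of these 5, 1 passed the filter on dim probes only through the Venus-negative arrays, so its p-value rests on that filter. Over the 8 paraxial and intermediate mesoderm markers the summed signal was 14.2 to 15.6 and 3.98 to 4.25, with 4 of 6 tested genes at a negative log2 difference and 2 called lower. The 7 lateral plate markers summed to 91.2 to 92.1 and 57.6 to 70.2, with all 5 tested genes at a negative log2 difference and 1 called. Most of that sum was Bmp4, whose signals were 34810 and 30173 against 29614 and 22431. Gata4, the called gene, was at -3.62 ± 0.32 (SE; adjusted p = 0.0360) and Hand1 at -1.53 ± 0.43 (SE; adjusted p = 0.151). The summed signal of the first list goes the way of Hoxb4 to Hoxb8 and that of the other 3 the way of Hoxb1; their part in the Hoxb differences was not tested. T and Fgf8 of the streak list and Egr2 of the neural list also stand among the regulators.

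Other cells that a sort could carry over were followed in the same way. At unadjusted p below 0.05 in limma, 12.3% of all probes tested were higher and 11.7% lower. The 10 neural and hindbrain markers summed to 6.94 to 7.41 in the Venus-negative and 9.48 to 11.3 in the Venus-positive cells, with 0 of 6 tested genes called in limma (3 higher and 1 lower at an unadjusted p under 0.05). Pax6, Neurog2 and Olig2 among them were not well above background on any array. Most of the neural sum was Nes, whose signals were 1600 and 1611 against 3024 and 3647. The median log2 difference was 0.12 over the 6 tested neural genes and -0.14 over all 10. The 10 OP9 stromal markers summed to 49.997 to 55.958 and 36.1 to 49.1, with 0 of 9 tested called and 1 lower at an unadjusted p under 0.05. Most of the stromal sum was Col1a2 (16236 and 13260 against 16060 and 11325). Lum (316 and 64.3 against 313 and 50.4) and Dcn (89.9 and 9.11 against 71.9 and 4.86) differed more between replicates than between fractions. Both were dimmer on the replicate 2 arrays, whereas Pparg was brighter there (502 and 738 against 482 and 591). The 9 blood and erythroid markers summed to 103 to 151 and 86.3 to 98.6, with 0 of 8 called and 1 lower at an unadjusted p under 0.05. Of the 7 pluripotency markers 5 had a negative log2 difference and 1, Tdgf1, was called lower, and they summed to 16.3 to 19.5 and 14.6 to 20.1. Pou5f1 had signals of 1049 and 603 against 222 and 130 (-2.39 ± 0.34 SE, adjusted p = 0.0618), while Klf4, which held much of the sum, had 3974 and 3429 against 7238 and 4730. The part of these cells in the Hoxb values was not tested.

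Genes with a pattern like that of Hoxb6 were ranked over the 4 arrays by the root mean square difference of log2 profiles, each centred on its own mean. Among 13227 named genes well above background on all arrays, the nearest were Ttc9 (0.0245), Rgl1 (0.0414), Osbp2 (0.0423), Kcnk6 (0.0443) and Lockd (0.0479). Over only 4 arrays many genes fall close together. Hoxb4 was the nearest Hoxb gene, at rank 100 with a distance of 0.14. Hoxb8, Hoxb9 and Hoxb7 stood at ranks 1827, 1885 and 2312, the first Hoxb3 probe at 5459, Hoxb5 at 7603, Hoxb2 at 7817 and Hoxb1 at 13029. The distance counts the size of a difference as well as its direction. Hoxb5, higher in the Venus-positive cells by more than Hoxb6, therefore ranked behind the first Hoxb3 probe, whose fractions overlapped.

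**Figure D5:**
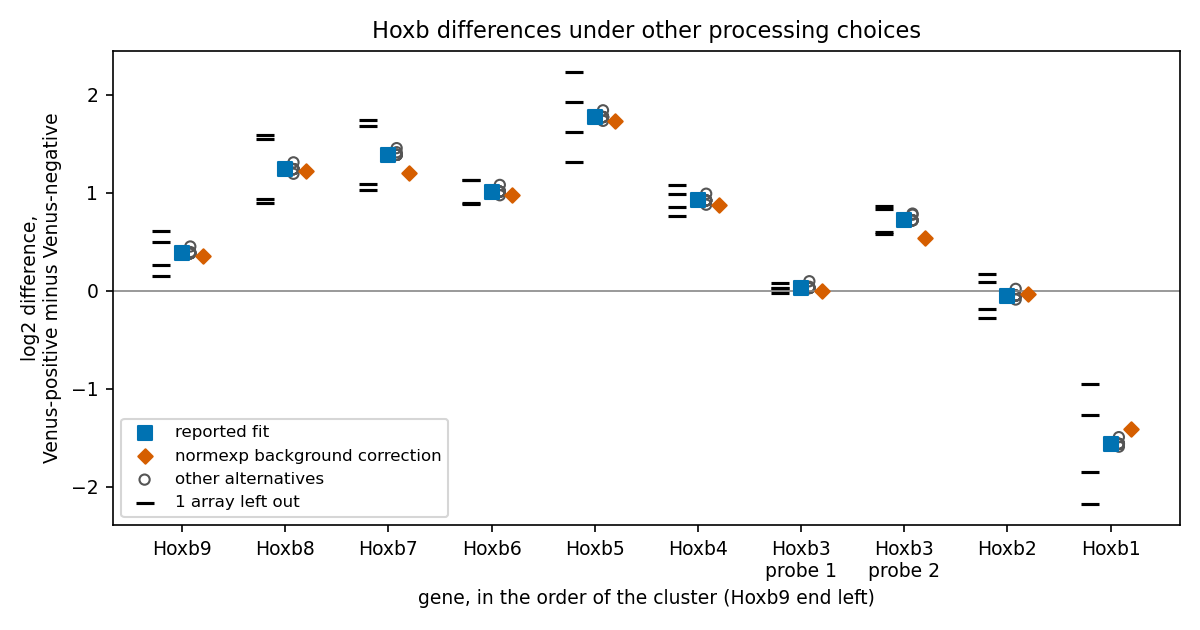
Log2 difference (Venus-positive minus Venus-negative) of each Hoxb probe in cluster order in the reported fit (squares), with normexp background correction (diamonds), under the other alternatives (circles) and with 1 array left out (dashes). Hoxb4 to Hoxb9 and the second Hoxb3 probe stay above 0 and Hoxb1 stays below 0 in all of them, while Hoxb2 and the first Hoxb3 probe lie on both sides of 0.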

How the data were processed

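RNA of sorted cells was labelled with Cy3 and hybridised to single-colour Agilent arrays, per the labels' protocols. The deposited scanner output gives spot intensity as processed by Agilent Feature Extraction 10.10.1.1: background was subtracted and spatial trends removed within an array, and arrays were not scaled to each other, per the file headers. The authors' deposited series values are linear intensity, equal to the processed signal multiplied by a constant for each array (1.98 to 2.44) with genes not centred. Their medians were 41.0 and 42.3 (Venus-negative) and 41.0 and 38.1 (Venus-positive), and the origin of the constants is not given in the sources used here.

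Control and outlier spots were left out, log2 signals were centred on each array's 75th percentile, and replicate spots were averaged per probe. A probe was kept where, in 1 fraction or both, each array had a share over 0.5 of its spots well above background. Of 27899 such probes, 2 had outlier spots and were dropped. Accessions were named through RefSeq (GRCm38.p6); 27235 of 55681 probes had a symbol. Each probe was tested with limma 3.58.1 (lmFit, eBayes; 2 residual and 1.84 prior degrees of freedom) in R 4.3.3 (data.table, version 1.17.8), with Benjamini-Hochberg adjustment over the 27897 probes tested at a threshold of 0.05. The script was tested on simulated data. A list takes each gene by its brightest probe.

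The members, lists, markers, motifs, tests and alternatives were chosen with earlier results of these data known. Named genes are the 9 Hoxb genes, Kdr, 5 neighbours on each side, the 5 genes nearest to Hoxb6 in pattern, and called or most changed members of each list. The smaller paralogs, the Pbx and Cdx genes and Rarb were added after their values were seen. So were the dim neural markers and Bmp4, Gata4, Hand1, Pou5f1, Tdgf1, Klf4, Cldn5, Nes, Col1a2, Lum, Dcn and Pparg. The ratio to the second Hoxb3 probe was added after the data were seen. Normexp used the median spot signal, the files holding no mean signal. Noncoding probes with mm9 coordinates were not used here, since the gene table is of another build. Some list members are not reported here. The number of arrays limits the precision.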

Additional observations from a re-analysis of the deposited data

How the results depend on the processing

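The reported fit called 681 probes (263 higher and 418 lower) and 0 Hoxb probes. With normexp 1569 were called (715 higher, 854 lower) and 3 Hoxb probes, with a signal-dependent variance prior 2020 (895 and 1125) and 3, and without a filter on dim probes 0 and 0, where 3397 were higher and 4316 lower at an unadjusted p under 0.05. Leaving out any 1 array gave 0 called probes in limma, from 0 to 0 (2046 to 2944 higher and 2096 to 2611 lower at an unadjusted p under 0.05), and 0 Hoxb probes; the lone array was then assumed to vary like the other group. Replicate numbers are shared between fractions and go with the slide row, but nothing in the labels pairs the samples. Deviations of same-numbered arrays correlated at r = 0.41 over probes. With the replicate number as a block, 1394 probes were called (601 and 793) and 2 Hoxb probes, Hoxb7 (adjusted p = 0.0400) and Hoxb8 (0.0407). The direction of Hoxb2 reversed with median centring (0.021) and when Venus-negative replicate 1 (0.18) or Venus-positive replicate 2 (0.088) was left out, and that of the first Hoxb3 probe (-0.026) when Venus-positive replicate 2 was left out. With 1 array left out, Hoxb2 ranged from -0.27 to 0.18 and the first Hoxb3 probe from -0.026 to 0.085. The other 8 probes kept their direction in every alternative run; Hoxb1 ranged from -2.17 to -0.95 and Hoxb5 from 1.32 to 2.23. Causes were not tested. The median over the 9 genes ranged from 0.76 to 1.08. All Hoxb probes were well above background, and with normexp Hoxb7 was at 1.20 and the second Hoxb3 probe at 0.54.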

Other observations

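Hoxb7 and Hoxb8, neighbours in the cluster, kept a nearly constant signal ratio across the 4 arrays although each varied several-fold. The log2 ratio of Hoxb8 to Hoxb7 was 2.48 and 2.50 in the Venus-negative and 2.35 and 2.33 in the Venus-positive cells, whereas the log2 signal of Hoxb7 alone ran from -1.34 to 0.70. Within each fraction the replicate 2 array was the brighter for Hoxb8 (by 0.61 and 0.69 on the log2 scale), Hoxb7 (0.59 and 0.71), Hoxb5 (0.91 and 0.31) and Hoxb4 (0.13 and 0.32). For Hoxb1 it was the dimmer, with differences of -0.58 and -1.22, as it was for Hoxb2 (-0.45 and -0.27), Hoxb9 (-0.45 and -0.23) and the second Hoxb3 probe (-0.23 and -0.29). In all, 8 of the 10 Hoxb probes differed between replicates in the same direction in both fractions, against 67.3% of all probes tested. These values were noticed in the data and have no test.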
